A study of Mus musculus with 4 samples.

Results

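Cluster 53 of the mouse hindbrain, which the study named Gal/Dkk2 after its leading marker genes, held 151 nuclei. Its members were the nuclei that passed the study's quality filter and carried this cluster name in the deposited table, and they were part of 12539 neuronal nuclei and 39461 kept nuclei in all. Of the 134 neuronal clusters it was number 17 by size. The 4 libraries gave it 17 nuclei in control 1, 19 in control 2, 43 in AgRP-Gq;POMC-Gi 1 and 72 in AgRP-Gq;POMC-Gi 2.

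The study asked which hindbrain neurons respond when AgRP neurons are driven and POMC neurons are silenced at the same time. AgRP-Gq;POMC-Gi mice carried AgRP-IRES-Cre+/-, hM3DGq fl/-, POMC-Dre+/- and hM4DGi fl/-, so that Cre in Agrp-transcribing cells switched on the activating designer receptor and Dre in Pomc-transcribing cells the inhibitory one. The control libraries are labelled WT, while the study's breeding scheme gives its control group both receptor alleles (written hM3DGq fl/- and hM4DGi fl/-) without Cre or Dre. All mice were 12 to 20 weeks old and of both sexes, all received the designer-receptor ligand clozapine-N-oxide (CNO, 3 mg per kg, intraperitoneally), and all were killed 1 h later without food. The dissected piece held the area postrema and the nucleus tractus solitarius (NTS), and nuclei were sorted by DNA stain before droplet RNA sequencing. Each group had 2 libraries, the sources describe 2 pooled mice per group, and which animals went into which library is not stated. The *p* values therefore measure the spread between libraries.

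Galanin, the product of *Gal*, is a neuropeptide that acts through G-protein-coupled receptors and is made in hypothalamic, brainstem and peripheral neurons, where it is stored in dense-core vesicles together with classical transmitters. Dickkopf 2, the product of *Dkk2*, is a secreted protein that binds the Wnt co-receptors Lrp5 and Lrp6 and modulates Wnt signalling. The NTS receives visceral afferents of the vagus nerve and relays them to brainstem and forebrain circuits of feeding and autonomic control.

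The genes behind the cluster's name lie on different chromosomes, *Gal* at chr19:3409915-3414544 on the minus strand and *Dkk2* at chr3:132085292-132180304 on the plus strand (GRCm38, GENCODE M21). The promoter windows of both are shown because these genes name the cluster, 250 bases before and 50 after each start, from RefSeq on GRCm38.p6 (*Gal* chr19:3414495-3414794, *Dkk2* chr3:132085042-132085341). Capitals mark matches, on either strand, to 3 motifs spelled out after the sequences.
Gal: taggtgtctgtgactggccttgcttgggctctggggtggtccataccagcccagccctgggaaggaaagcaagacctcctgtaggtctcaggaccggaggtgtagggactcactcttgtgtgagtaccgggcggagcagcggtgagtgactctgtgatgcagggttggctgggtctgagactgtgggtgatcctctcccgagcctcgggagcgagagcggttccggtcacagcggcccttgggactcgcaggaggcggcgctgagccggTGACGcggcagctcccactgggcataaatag
Dkk2: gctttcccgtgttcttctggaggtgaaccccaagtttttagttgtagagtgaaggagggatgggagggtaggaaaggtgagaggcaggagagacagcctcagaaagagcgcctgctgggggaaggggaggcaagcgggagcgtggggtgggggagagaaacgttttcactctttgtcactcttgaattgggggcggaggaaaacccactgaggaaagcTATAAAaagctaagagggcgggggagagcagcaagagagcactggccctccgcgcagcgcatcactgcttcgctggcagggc
The *Dkk2* window held TATAAA, the letters of a TATA box, at position -32 from its start, and 14.2% of 27025 promoter windows of this length held that motif. The *Gal* window held TGACG, the core of a cAMP response element, at position 19 past its start, as did 5681 of the 27025 windows on either strand. TAATTA, a homeodomain core, was in neither window and in 5.31% of all windows. These matches describe letters and say nothing of which factors bind.

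Levels are given in CPM, the UMIs of a gene (unique molecular identifiers, each marking a captured transcript) per 1000000 UMIs of the summed nuclei. *Gal* CPM in cluster 53 were 228 in control 1, 889 in control 2, 331 in AgRP-Gq;POMC-Gi 1 and 362 in AgRP-Gq;POMC-Gi 2, against 7.74 ± 4.11 (SD, n = 4 libraries) in all other neurons. Every library stood well above the other neurons, and control 2 was the highest. A *Gal* UMI was found in 98 nuclei, 64.9% of the cluster (exact 95% interval 56.7 to 72.5), compared with 5.24% of other neurons and 2.18% of oligodendrocytes, which should lack the gene. Median depth was 7985 UMIs in the cluster, 8711 in other neurons and 2460 in oligodendrocytes. Thinned to 2000 UMIs, which left out shallower nuclei and kept 149 of the cluster, 12224 other neurons and 11400 of 16816 oligodendrocytes, the shares were 36.2%, 1.67% and 1.43%. The cluster's share was thus far above that of oligodendrocytes at equal depth, and that of other neurons was close to it. Intervals cover counting error only.

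Of all *Gal* UMIs in neurons, 34.9% fell in these 151 nuclei. Cluster 53 had the highest pooled *Gal* level of 133 neuronal clusters with 20 or more nuclei, 400.2 CPM over the 4 libraries together. The next were 154: Olfr78/Calcr with 156, 149: Cartpt/Arhgap28 with 121 and 70: Tfap2b/Cntnap5b also with 121. Since the clusters were built from expression, this order is a description and was not tested.

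*Dkk2* had 47.6, 83.6, 64.2 and 125 CPM in control 1, control 2, AgRP-Gq;POMC-Gi 1 and AgRP-Gq;POMC-Gi 2, and 2.80 ± 0.940 (SD, n = 4) in other neurons. The lowest library of the cluster was thus far above the other neurons. Its UMIs were in 41 nuclei, 27.2% of the cluster (exact 95% interval 20.2 to 35.0) and 1.60% of other neurons. Only cluster 176: Dkk2/Col25a1 ranked above it, with 130 pooled CPM against 91.3. UMIs of both genes were found in 35 nuclei, of *Gal* alone in 63, of *Dkk2* alone in 6 and of neither in 47. Nuclei without a *Gal* UMI had a median depth of 8845 UMIs, against 7647 in those with one.

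**Figure D1:**
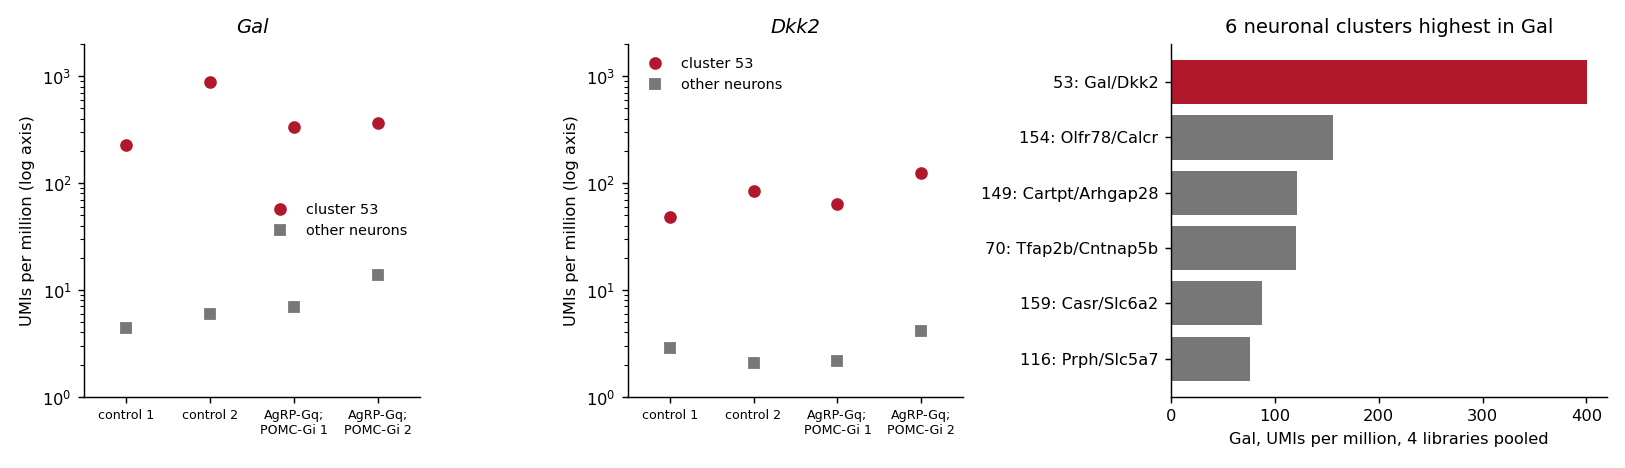
Left and middle, CPM of Gal and Dkk2 (log axis) in each of the 4 libraries, red circles for cluster 53 and grey squares for all other neurons. Right, the 6 neuronal clusters with the most Gal over the pooled libraries (CPM, bars from 0). Both genes sit above the other neurons in all 4 libraries, and cluster 53 leads in Gal with 400.2.

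No nucleus barcode of the cluster was shared between libraries. Median depth in the cluster was 11701, 7606, 8278 and 7460 UMIs in control 1, control 2, AgRP-Gq;POMC-Gi 1 and AgRP-Gq;POMC-Gi 2, and summed UMIs were 188896, 167511, 389610 and 590789, so the control sums were the shallower ones. All 6 neuron markers were found, in 58.3% (*Rbfox3*) to 100% (*Meg3*) of nuclei. Markers of other cell types were low and close to those in other neurons: summed oligodendrocyte markers ran from 146 to 286 CPM (151 to 304 in other neurons), astrocyte markers from 28.2 to 79.6 (47.6 to 85.7) and microglia and macrophage markers from 71.1 to 185 (140 to 154). The last sum was mostly *P2ry12*, which lies inside *Med12l* on the other strand. Markers of oligodendrocyte precursors stayed at 30.5 or lower and those of vessels at 15.9 or lower. *Ttr*, the choroid plexus transthyretin, was at 0, 1128, 18.0 and 640 CPM in the same library order. The choroid, ependymal and fibroblast markers summed to 11.5, 1019, 17.4 and 593 in other neurons of the same libraries, so the high libraries were 1 of each group. The part of any of these markers in the results was not tested.

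The sex mix of the nuclei ran beside all comparisons of the groups. *Xist*, transcribed from the inactive X chromosome, was found in 16, 10, 29 and 0 of the nuclei in control 1, control 2, AgRP-Gq;POMC-Gi 1 and AgRP-Gq;POMC-Gi 2, and a UMI of *Uty*, *Ddx3y*, *Kdm5d* or *Eif2s3y* on the Y chromosome in 0, 7, 16 and 68. Over all neurons *Xist* was in 66.8%, 48.3%, 64.6% and 2.17% of nuclei, so the AgRP-Gq;POMC-Gi libraries differed from each other in the animals they hold. A Y-linked UMI was in 29.9%, 45.0%, 30.7% and 89.2% of all neurons, so control 1 had such UMIs outside the cluster.

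Apart from *Gal*, the genes that set the cluster apart included homeodomain and other transcription factors, synaptic proteins and long noncoding RNAs. They are a description with no test, since the same expression formed the cluster. Among 893 genes with a UMI in 30% or more of its nuclei and a higher level than in other neurons in all 4 libraries, the 25 with the highest ratio ran from *Gal* (log2 ratio 5.70, pseudocount 1 CPM) to *Cald1* (2.02), and 19 of them code for protein. Of these 25, 4 had their highest level among neuronal clusters here (*Gal*, *Irx5*, *Crnde* and *Hoxa5*), and 20 were within the top 5.

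The Iroquois homeodomain factors pattern the neural tube. *Irx5* (chr8:92357625-92376286) had 26.5, 59.7, 41.1 and 49.1 CPM in the 4 libraries and 2.85 in other neurons, with UMIs in 33.1% against 2.48% of nuclei. Its neighbour *Crnde*, a noncoding RNA that starts 1505 bases away on the opposite strand, stood at 45.8 ± 5.54 (SD, n = 4) against 3.20. *Irx3* (20.7 against 1.67), *Irx1* (15.8 against 2.22) and *Irx2* (36.0 against 7.86) were also higher in all 4 libraries, although each was found in at most 25.2% of nuclei.

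*Lmx1b*, which acts in dorsal excitatory hindbrain neurons, stood at 37.7 ± 7.82 (SD, n = 4) against 15.8. Its pooled level of 39.6 CPM was below those of the most similar clusters, 50.3 in 43, 63.3 in 76 and 48.1 in 149. *Ebf1* was at 1411 ± 195 against 520, while its relative *Ebf3* was low, at 5.56 ± 10.0 against 97.8 and in 2.65% of nuclei. *Zfhx3* (chr8:107942644-108961630), a zinc-finger homeodomain factor, was found in 98.0% of nuclei at 2386 ± 375 against 466, with *Lncbate1* on the opposite strand inside it at 160 against 31.1. *Zfhx4* followed at 561 ± 81.3 against 197, and *Rarb*, a retinoic acid receptor, at 638 ± 175 against 80.8. Pooled *Zfhx4* was 591 CPM here, against 331 in cluster 43, 137 in 76 and 786 in 149. Of 101 lineage factors listed, 56 had a UMI in the cluster and 24 were in 5% or more of its nuclei. Of these 24, 12 were higher than in other neurons in all 4 libraries and 8 lower, beside 14.2% and 15.7% of the 11538 genes found in 5% or more of the nuclei.

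Hox genes record position along the body axis, and some of them were higher in the cluster than in other neurons. *Hoxa5* (chr6:52201754-52204587) had 52.9, 143, 53.9 and 88.0 CPM and 12.3 in other neurons, and UMIs in 43.7% against 10.1% of nuclei. It lies within the annotated span of *Hoxa3* on the same strand, so reads could be split between them. *Hoxc4* was at 130 ± 25.6 against 40.8 and in 58.9% of nuclei, number 2 of the neuronal clusters, and *Hoxb4* at 67.1 ± 12.9 against 26.6. Of 30 Hox genes, 16 had a UMI and 9 were in 10% or more of nuclei. Of the 11 in 5% or more of nuclei, 7 were higher than in other neurons in all 4 libraries and 0 lower.

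A block on chromosome 3 was high here and higher still in cluster 149: Cartpt/Arhgap28. The long noncoding RNAs *Gm20754* (1094 ± 131 against 170) and *4930509J09Rik* (676 ± 132 against 105) overlap by 130446 bases on opposite strands, and *Bche*, butyrylcholinesterase, lies 40978 bases from the first with 63.4 ± 24.3 against 9.01. Pooled CPM in cluster 149 were 1236 for *Gm20754*, 838 for *4930509J09Rik* and 121 for *Bche*, against 1108, 679 and 69.6 in cluster 53. The strand setting of the counting is not given in the sources used here, so whether reads of overlapping opposite-strand genes were kept apart is not known. Synaptic and signalling genes among the 25 were *Synpr* (synaptoporin, a synaptic vesicle protein) at 524 ± 102 against 88.7 (pooled 543 here and 717 in cluster 149), *C1ql3* (a secreted synapse organizer) at 140 ± 26.5 against 20.9, *Syt17* at 109 ± 23.7 against 19.1, *Rgs9* (a regulator of G-protein signalling) at 156 ± 10.2 against 31.5 and *Efna5* (an ephrin ligand) at 1242 ± 167 against 268.

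Genes low in the cluster were led by *Adarb2*, an RNA-editing family member of many interneurons, with 33.9 ± 16.7 CPM against 721 in other neurons. *Myo16* (9.86 against 147), *Dscaml1* (13.0 against 153) and *Dach1* (33.0 against 331) were likewise below other neurons in every library.

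**Figure D2:**
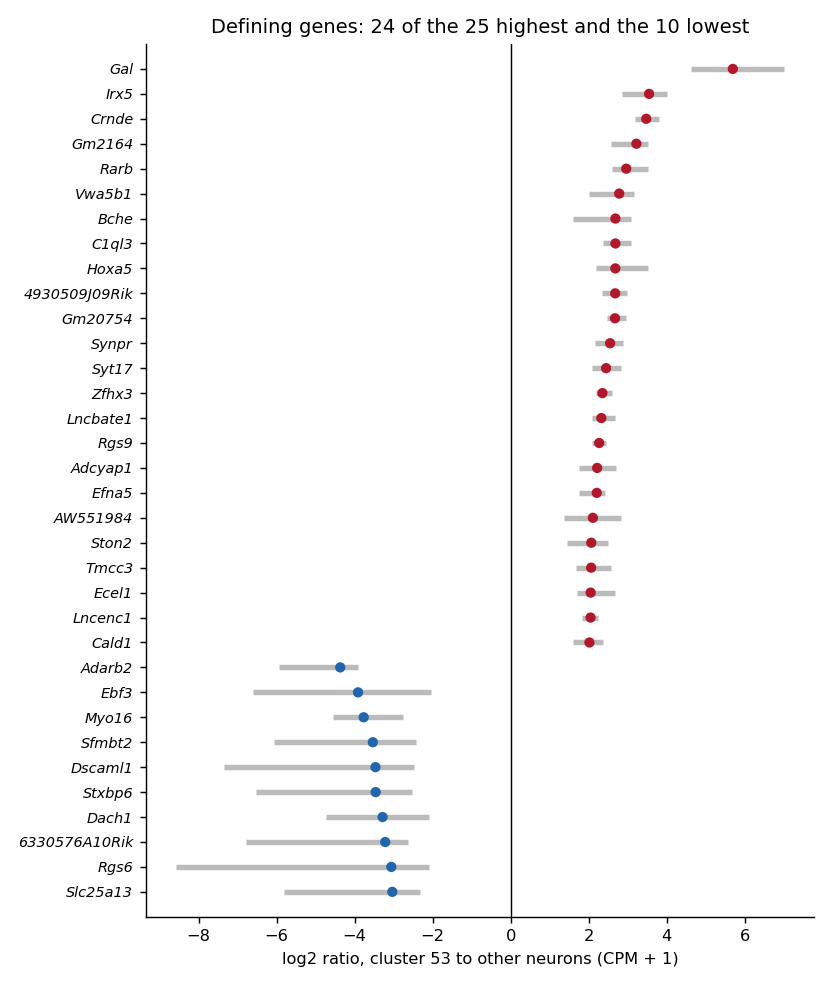
Log2 ratio of CPM (plus 1) in cluster 53 to that in other neurons for 24 of the 25 highest (red) and the 10 lowest (blue) genes. Points are the ratio of means over 4 libraries and grey bars run from the lowest to the highest library. Gal stands apart at 5.70, and no bar crosses 0, as the selection required.

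By its transmitter genes the cluster was glutamatergic. *Slc17a6*, the vesicular glutamate transporter VGLUT2, had 169, 167, 164 and 188 CPM in the 4 libraries, which lay close together, and 74.9 in other neurons. *Slc32a1*, the vesicular GABA and glycine transporter, had 3 UMIs in all 151 nuclei (1.49 against 27.4 CPM in other neurons). The ratio of their means was 116, past the 4-fold rule for a glutamatergic call, and the call was the same without any one library. *Gad1* (6.69 against 51.1) and *Slc6a5*, the glycine transporter GlyT2 (10.3 against 84.0), were low in every library. *Gad2* was still found in 24.5% of nuclei, at 56.1 ± 19.8 against 95.8. UMI levels were not divided by gene length.

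*Th* and *Dbh*, of catecholamine synthesis, had few or no UMIs. *Th*, tyrosine hydroxylase, had no UMI in any of the 151 nuclei, which allows a share of up to 1.99% of nuclei with a UMI, and *Dbh* had 3 UMIs (2.34 CPM). *Ddc*, the aromatic amino acid decarboxylase, stood at 36.1 ± 7.13 against 13.4 in other neurons, but oligodendrocytes also held a *Ddc* UMI in 10.2% of nuclei against 18.5% here. *Nos1*, neuronal nitric oxide synthase, was at 37.6 ± 17.7 against 20.6. *Slc6a2*, *Slc6a4* and *Hdc* had no UMI, and *Chat* had 1.

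Transcripts of other peptide precursors were measured over the same nuclei. *Adcyap1*, which encodes PACAP, had 42.4, 77.6, 56.5 and 64.3 CPM against 12.2 in other neurons, in 35.1% of nuclei. *Penk*, the enkephalin precursor, had 42.4, 107, 74.4 and 96.5 against 42.5. *Cartpt* had 21.2, 47.8, 23.1 and 152 against 15.4, and 41 of the 90 UMIs of AgRP-Gq;POMC-Gi 2 came from a single nucleus. *Agrp*, whose promoter drives Cre in the AgRP-Gq;POMC-Gi mice, stood at 85.5 ± 11.9 here and 88.1 in other neurons, and its annotated span overlaps *Ripor1* and other genes. Of 54 other peptide precursors, 10 were in 10% or more of nuclei. Of the 14 in 5% or more, 4 were higher than in other neurons in all 4 libraries and 1 lower.

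Receptors for galanin were near the floor. *Galr1* had 12 UMIs (8.22 against 5.04 CPM in other neurons), *Galr3* had 1 and *Galr2* none. Of the Dickkopf receptors, *Lrp6* was at 93.8 ± 35.2 against 76.3, *Lrp5* had 1 UMI and *Kremen1* had 6. *Dkk1* and *Dkk4* had none. Of 58 further Wnt pathway genes, 8 were in 10% or more of nuclei. *Fzd3*, a Frizzled receptor, was the only one of the 58 above other neurons in all 4 libraries (61.5 ± 9.26 against 43.7), and 7 of the 14 in 5% or more of nuclei were below.

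Among receptors for visceral and feeding signals, *Nmbr*, the neuromedin B receptor, was the most distinct by ratio, with 26.5, 41.8, 25.7 and 16.9 CPM against 1.98, in 15.2% against 1.74% of nuclei. Its pooled level ranked number 3, and the clusters at ranks 1 and 3 lay close together (25.9 against 23.9). *Cnr1*, the CB1 cannabinoid receptor, stood at 81.5 ± 17.0 against 28.6, and *Calcrl*, the receptor component shared by CGRP and adrenomedullin, at 33.1 ± 17.2 against 6.52, though in only 10.6% of nuclei. *Lepr* was not above other neurons (14.7 ± 10.9 against 17.7). *Adra1a*, the alpha-1A adrenergic receptor, was at 129 ± 19.0 against 41.5 and in 52.3% of nuclei. The glucocorticoid receptor *Nr3c1* was at 83.3 ± 15.4 against 40.9. Of 65 such receptors 24 were in 5% or more of nuclei, 4 of them higher in all 4 libraries and 4 lower, and of 42 monoamine and acetylcholine receptors 16 were, with 5 higher and 5 lower.

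Voltage-gated channels were broadly present, 52 of 60 in 5% or more of nuclei, with 16 of these higher and 20 lower than in other neurons in all 4 libraries. *Kcnd3* (332 ± 52.0 against 126), *Kcnn3* (86.3 ± 19.0 against 30.6) and *Cacna2d1* (1041 ± 270 against 502) were above other neurons, and *Kcna1* (27.4 ± 10.8 against 130) and *Cacna2d3* (113 ± 37.6 against 531) below. Of 45 glutamate, GABA and glycine receptor subunits, 40 were in 5% or more of nuclei, 8 of them higher and 18 lower. Among 9 calcium-binding proteins 1 was above other neurons in all 4 libraries and 3 below, and *Ncald* stood at 247 ± 62.6 against 122.

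Cluster 53 was most like 43: Tafa2/Pde1a (Pearson *r* = 0.83 over the 2000 most variable genes), cluster 76 (*r* = 0.83) and 149: Cartpt/Arhgap28 (*r* = 0.80), with a median of 0.67 over all neuronal clusters. These correlations are across genes and share libraries, so they are given as a description. All 3 shared *Slc17a6* at similar pooled levels, 176 CPM here and 153, 176 and 144 in 43, 76 and 149. Cluster 149 shared the most of the name genes and the Iroquois set, with 121 *Gal*, 54.4 *Dkk2* and 33.5 *Irx5* CPM. *Ebf1* parted them, at 1491 in cluster 53, 1274 in 43, 65.1 in 76 and 98.3 in 149. *Hoxa5* was highest here, 80.0 against 0.645, 24.4 and 6.27, and *Nmbr* stood at 23.9 against at most 2.58. *Dbh* marked cluster 76, at 67.9 against 2.24 in cluster 53, and *Th* was in 20% of the nuclei of cluster 76 and in none of cluster 53.

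**Figure D3:**
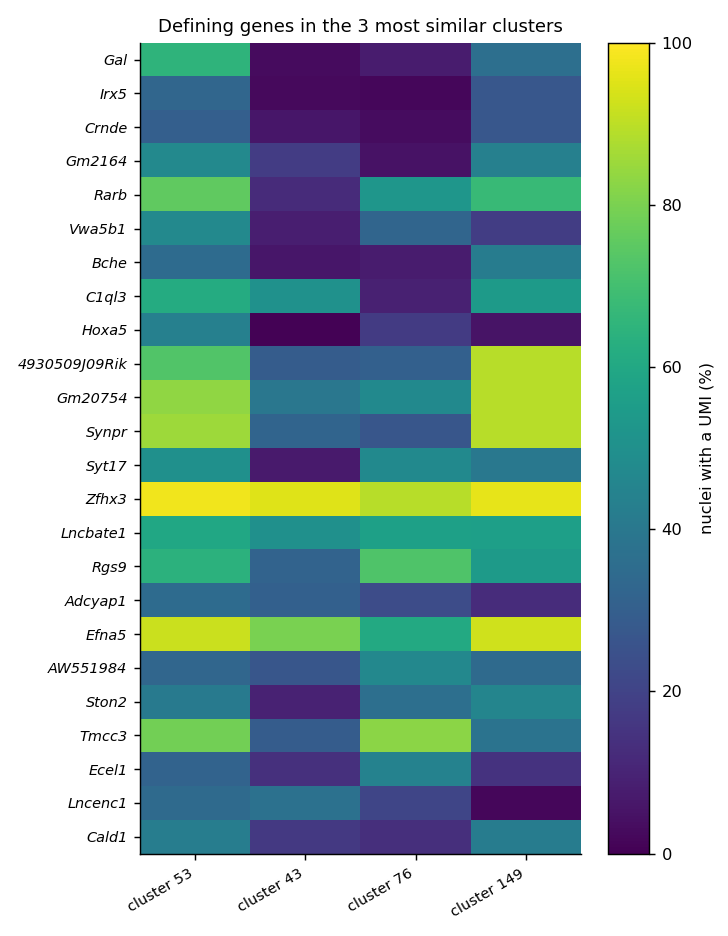
Share of nuclei with at least 1 UMI (colour, 0 to 100%) for 24 of the 25 genes that defined cluster 53, in that cluster and in its 3 nearest clusters. Zfhx3 is shared by all 4, Irx5 is in 33.1% of nuclei of cluster 53 and 27.3% of cluster 149 against at most 2.44% in the others, and Hoxa5 falls from 43.7% in cluster 53 to 17.5% or less.

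The next question was whether the cluster differed between groups. It made up 0.688% of neurons in control 1, 0.694% in control 2, 1.16% in AgRP-Gq;POMC-Gi 1 and 1.98% in AgRP-Gq;POMC-Gi 2. Both AgRP-Gq;POMC-Gi libraries lay above both controls, with means 2.27-fold apart, and groups did not overlap in 38.1% of neuronal clusters. The difference did not pass the test over 134 neuronal clusters (edgeR log2 difference 1.18, SE 0.487, adjusted *p* = 0.648), and no cluster did (0%), while 8 clusters had an unadjusted *p* under 0.05. An exact two-sided permutation test gave *p* = 0.333, the smallest that 2 against 2 libraries can give. Nuclei were sorted before loading, so these are shares of sorted nuclei. With AgRP-Gq;POMC-Gi 2 left out the difference was 0.75.

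Within the cluster, 11538 genes with a UMI in 5% or more of its nuclei were tested on UMIs summed per library (edgeR quasi-likelihood, Benjamini-Hochberg). The median log2 difference over all of them was 0.03. Only 2 genes passed, both higher in AgRP-Gq;POMC-Gi, which is 0.0173% of the genes tested, and *Chrm3* is described here. At an unadjusted *p* under 0.05 there were 470, 301 higher and 169 lower. The filter pooled the nuclei of all libraries, 17 and 19 from the controls and 43 and 72 from AgRP-Gq;POMC-Gi. Its part in this split was not tested. DESeq2 called 0 genes and had 44 at an unadjusted *p* under 0.05.

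*Chrm3* (chr13:9875486-10360847) encodes the M3 muscarinic acetylcholine receptor, which couples to Gq. The activating designer receptor that Cre switched on in AgRP-Gq;POMC-Gi mice, hM3DGq, shares the M3 name. Whether any reads of that transgene were counted as *Chrm3* was not tested. Its UMIs were 9, 12, 119 and 128, or 47.6, 71.6, 305 and 217 CPM, with both controls below both AgRP-Gq;POMC-Gi libraries. Groups did not overlap for 33.8% of all genes tested. The log2 difference was 2.19 (SE 0.356, edgeR adjusted *p* = 0.0334), and in other neurons (355 ± 31.5, SD, n = 4) the group means were 1.03-fold apart. *Chrm3* was in few nuclei: 2 of 17, 2 of 19, 15 of 43 and 19 of 72, at up to 26 UMIs in a nucleus. In each control library 8 UMIs came from 1 nucleus.

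The interaction of population and group asks whether the difference in the cluster differed from that in other neurons. It was called for *Chrm3* alone, 0.00867% of genes (log2 2.09, SE 0.323, edgeR adjusted *p* = 0.0445). The *Chrm3* call within the cluster held in 8 of 9 alternatives, 4 of which left 1 library alone in its group and took the spread from the other pair, and was lost with DESeq2, at nearly the same size (log2 difference 2.18, adjusted *p* = 0.244). The interaction was lost when either AgRP-Gq;POMC-Gi library was left out (no gene called), and its size stayed between 1.93 and 2.30 over 8 alternatives.

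**Figure D4:**
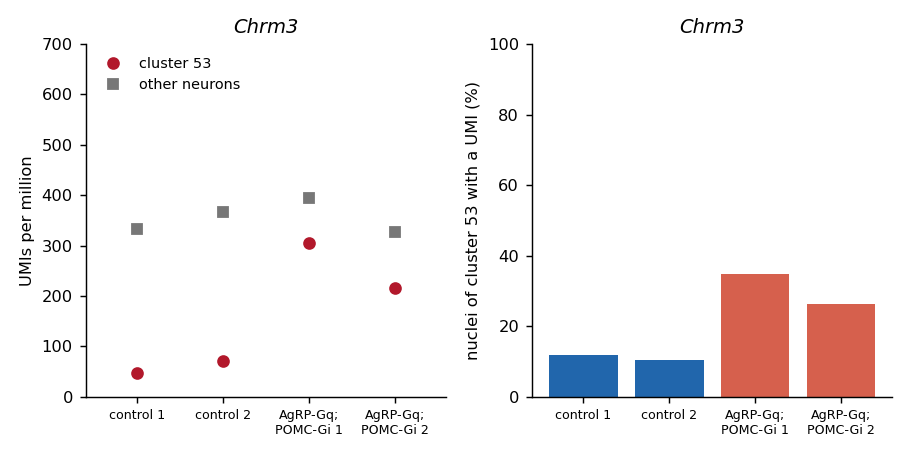
Left, CPM of Chrm3 in each library (red circles, cluster 53, grey squares, other neurons, axis from 0). Right, the share of the cluster's nuclei with a Chrm3 UMI (bars, blue for control and red for AgRP-Gq;POMC-Gi). Levels in the cluster run from 47.6 to 305 and in other neurons from 326 to 394.

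Because UMIs of *Chrm3* sat in a minority of nuclei, genes with a high ratio between these nuclei and the others were described, a choice made after the values were seen. Of 38 nuclei with a *Chrm3* UMI, 27 also held *Gal*, against 71 *Gal* nuclei among the other 113. *Nxph1*, which encodes a ligand of neurexins, was in 76.3% of the *Chrm3* nuclei and 28.3% of the others, *Zeb2* in 63.2% and 7.08%, *Sema5a*, an axon guidance gene, in 57.9% and 12.4%, and *Csgalnact1* in 52.6% and 5.31%. Median depth was 7490 and 8377 UMIs. The share with *Chrm3* was 11.8%, 10.5%, 34.9% and 26.4% over the libraries, with medians of 4.5, 6, 5 and 4 *Chrm3* UMIs in the nuclei that held one (2, 2, 15 and 19 nuclei). *Nxph1* itself had 233, 89.5, 436 and 323 CPM and missed the threshold (log2 difference 1.26, SE 0.353, edgeR adjusted *p* = 0.994). Log2 differences were smaller for *Zeb2* (0.43), *Sema5a* (0.43) and *Csgalnact1* (0.76), each at an edgeR adjusted *p* of 0.994. In the sums over a library that the test used, more nuclei of a kind and more RNA in each nucleus cannot be told apart.

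The mix of the sexes moved with the libraries, and the levels within it were these. In nuclei with a *Xist* UMI and none from the Y chromosome, *Chrm3* was at 45.4, 130 and 330 CPM in control 1, control 2 and AgRP-Gq;POMC-Gi 1. A *Chrm3* UMI was in only 1 of 16, 2 of 9 and 9 of 24 of these nuclei. In nuclei with a Y-linked UMI and no *Xist*, *Chrm3* was at 151 and 212 CPM in AgRP-Gq;POMC-Gi 1 and AgRP-Gq;POMC-Gi 2 (a UMI in 3 of 11 and 18 of 68 nuclei), and control 2 had 0 UMIs in its 6 nuclei, too few to compare. The part of the sex mix in the *Chrm3* difference was not tested.

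By the rule for further genes, those with the smallest unadjusted *p* and groups apart were named although none passed the test as designed. *Bmpr1b*, a bone morphogenetic protein receptor, had 0, 0, 9 and 24 UMIs, and *Rbsn*, an endosomal protein gene, had 0, 0, 11 and 15. Both reached the filters on nuclei and UMIs through the AgRP-Gq;POMC-Gi libraries alone, so their empty controls are no added support. *Wdr60*, of the dynein-2 complex, had 52.9, 53.7, 131 and 137 CPM (log2 difference 1.38, adjusted *p* = 0.994). *Uty* and *Eif2s3y* lie on the Y chromosome and had 0 UMIs in the cluster in control 1, whose other neurons held 57.3 and 36.7 CPM of them. On the lower side, *Gfra2*, the neurturin receptor, had 74.1, 83.6, 23.1 and 25.4 CPM (log2 difference -1.62, SE 0.432, adjusted *p* = 0.994), and *Gm26713* (-2.51, adjusted *p* = 0.558), *Rsph14* (-1.73), *Gm32442* (-1.87) and *Spns2* (-2.18) followed. *Rsph14* overlaps *Gnaz* on the other strand. *Spns2* was also in 26.2% of oligodendrocytes, against 17.2% of the cluster's nuclei, and the part of oligodendrocyte RNA in its difference was not tested. With no filter on genes *Bmpr1b* (edgeR adjusted *p* = 0.0270), *Uty* (0.000664), *Eif2s3y* (0.0270) and *Gm26713* (0.0129) passed, and with a replicate block the same 4 (0.0393, 0.000361, 0.0219 and 0.00867) and *Gm32442* (0.0393). Without control 2, *Uty* (1.77e-05), *Eif2s3y* (0.00269) and *Gm26713* (0.00821) passed by the same test, and without AgRP-Gq;POMC-Gi 1 *Uty* (0.000424) did. In the first case control 1, with 0 UMIs of *Uty* and *Eif2s3y*, was the only control, and in both the spread came from the pair that remained.

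*Gal* itself did not pass (log2 difference -0.60, SE 0.379, adjusted *p* = 0.994), and the result turned on control 2: the difference was 0.64 without it and -1.26 without control 1, which was then called (edgeR adjusted *p* = 0.0170) with control 2 alone in its group and the spread taken from the AgRP-Gq;POMC-Gi pair. In control 2, 11 nuclei held *Gal* UMIs at a median of 12, against 3.5, 3 and 2 in the nuclei with *Gal* of the other libraries. The share of nuclei with *Gal* was 47.1%, 57.9%, 69.8% and 68.1%. *Dkk2* did not pass either (log2 difference 0.64, SE 0.396, adjusted *p* = 0.994).

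The 10 immediate early genes that the study used as signs of recent activity gave no call with all libraries. Of these, 8 were tested, with 3 fitted higher and 5 lower and a median log2 difference of -0.22 beside 0.03 over all genes tested. *Fos* had 11, 3, 4 and 25 UMIs, or 58.2, 17.9, 10.3 and 42.3 CPM (log2 difference -0.41, SE 0.626, adjusted *p* = 0.994), so the groups overlapped. *1700016P03Rik* had 132, 47.8, 2.57 and 146 CPM, *Nr4a3* 63.5, 65.7, 0 and 49.1, and *Homer1* 63.5, 95.5, 61.6 and 110. *Fosl2* and *Gem* were in under 5% of nuclei and were not tested.

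A UMI of these genes was in 111 of the 151 nuclei. The top nucleus held 64.4% of these UMIs in control 1, 35.8% in control 2, 11.9% in AgRP-Gq;POMC-Gi 1 and 21.8% in AgRP-Gq;POMC-Gi 2. Summed over the 10 genes there were 104, 53, 67 and 308 UMIs, with medians of 2, 1, 2 and 1 in a nucleus, and 2, 1, 0 and 8 nuclei held 10 or more. A single nucleus of control 1 held 67 of its 104, with 10 of *Fos*, 12 of *Nr4a3*, 13 of *Gem* and 18 of *1700016P03Rik*, and one of AgRP-Gq;POMC-Gi 2 also held 67, with 9, 5, 10 and 25 of the same genes. The second of these had 0 *Gal* UMIs and was the nucleus with 41 *Cartpt* UMIs, while the first had 10 of *Gal* and 0 of *Cartpt*. Without the top nucleus of each library the sum was 211, 220, 154 and 419 CPM, against 156, 152, 155 and 188 in other neurons. AgRP-Gq;POMC-Gi 2 was then the highest and AgRP-Gq;POMC-Gi 1 the lowest, so the groups overlapped. Fitted directions turned on single libraries: the *Fos* difference was 0.75 without control 1 and -1.76 without AgRP-Gq;POMC-Gi 2. Without AgRP-Gq;POMC-Gi 2, *Nr4a3* and *1700016P03Rik* were called lower (edgeR adjusted *p* = 0.00624 and 0.00250), with AgRP-Gq;POMC-Gi 1 alone in its group at 0 and 1 UMIs of them and the spread taken from the control pair.

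**Figure D5:**
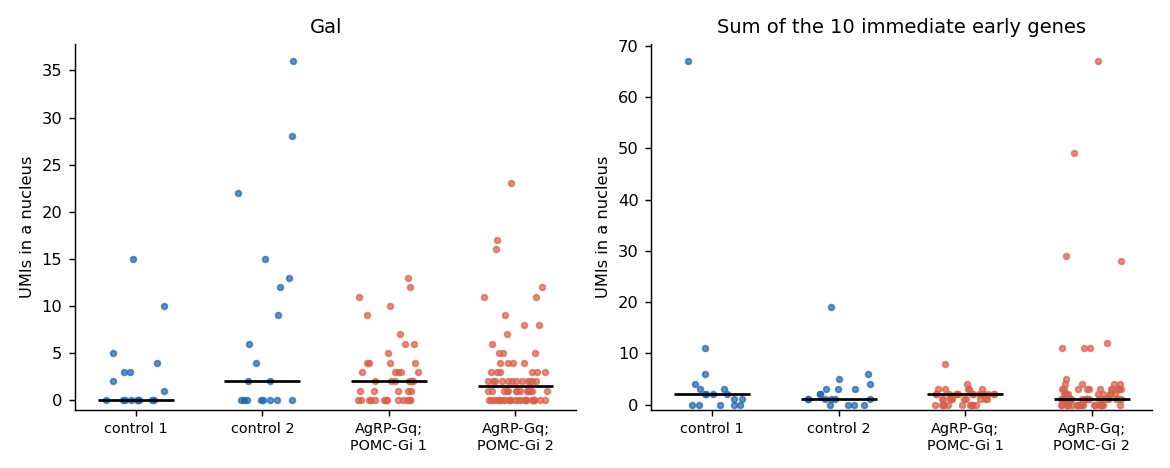
UMIs in each nucleus of cluster 53 by library for Gal (left) and for the sum of the 10 immediate early genes (right). Points are nuclei, shifted sideways at random, and black lines are medians. A nucleus of control 1 and one of AgRP-Gq;POMC-Gi 2 reach 67 immediate early gene UMIs while medians are 1 or 2, and control 2 holds the nucleus with the most Gal UMIs, 36.

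Of the gene lists, the monoamine and acetylcholine receptors held a called member, *Chrm3*, and 8 of the 16 tested were fitted higher (median near 0). The lists for sex chromosome genes, calcium-binding proteins, steroid hormone receptors and cell types held none. The sex chromosome genes had a fitted median of 2.42 (6 tested), with groups apart for 4 higher and 1 lower. Groups did not overlap for 7 of 16 of these receptors with AgRP-Gq;POMC-Gi higher and 2 with it lower, for 9 and 3 of 24 lineage factors, for 6 and 9 of 40 receptor subunits and for 6 and 4 of 24 receptors of feeding and visceral signals, beside 16.5% and 17.3% of all genes tested. Fitted medians for other activity genes (14 tested, -0.45), glucocorticoid-induced genes (9, -0.63) and clock genes (15, -0.12) lay below that of all genes, and that for lineage factors above it (24, 0.32), with no member called. Hox genes had a median of -0.14 (11 tested), glutamate and GABA receptor subunits -0.02 (40), peptide precursors 0.08 (14) and receptors of feeding and visceral signals -0.09 (24).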

How the data were processed

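The authors counted reads from 10x droplet libraries of sorted hindbrain nuclei with Cell Ranger 7.0.0 against GRCm38 (mm10) and ran a search for doublets. They integrated and clustered the nuclei with scVI and Seurat 4.3.0, leaving immediate early genes out of the genes used for clustering. Kept nuclei had 800 or more UMIs, 500 or more genes and at most 10% mitochondrial reads. The deposited matrices hold raw UMI counts, 1 per library, and the deposited nucleus table gives the mitochondrial percent, the quality call and the cluster. Its score columns, which hold the study's own activity comparison, and a merged matrix were not used. The strand setting of the counting is not given in the sources used here. The doublet calls were taken as the authors made them.

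UMIs were summed per library over the cluster and over other neurons, giving 167511 to 590789 UMIs per cluster sum. Levels in CPM were set against other neurons on a log2 scale with a pseudocount of 1, with no test. Groups were compared with the edgeR 4.0.16 quasi-likelihood test (TMM, Benjamini-Hochberg, threshold 0.05; R 4.3.3) over genes with a UMI in 5% or more of the cluster's nuclei, after the scripts were tested on simulated data. The interaction used 8 sums with library as a block. DESeq2 1.42.0, other filters and scalings, a replicate block and leaving out each library were alternatives. Shares of nuclei carry Clopper-Pearson intervals, and a count of 0 was bounded by 3 counts.

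Named genes were the 25 highest and 10 lowest in ratio at 30% of nuclei of the higher side, members of 27 lists, genes called between groups and the 5 per direction with the smallest p, 20 or more UMIs and groups apart. *Chrm3* companions and the split by *Xist* were chosen after values were seen. Some genes that these rules select are not reported here. The members and lists were chosen with earlier results of these data known.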

Additional observations from a re-analysis of the deposited data

Results flagged for a closer look

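The group difference of *Chrm3* in cluster 53 exceeded that in all other neurons by 2.09 on the log2 scale (SE 0.323, edgeR adjusted *p* = 0.0445, interaction of population and group over 4 libraries). It drew attention because the difference itself passed a test. The call was lost when either AgRP-Gq;POMC-Gi library was left out. In the cluster both AgRP-Gq;POMC-Gi libraries (305 and 217 CPM) were above both controls (47.6 and 71.6), while other neurons ran from 326 to 394 in the 4 libraries. The control values rest on 9 and 12 UMIs in 2 nuclei of each library. The part of hM3DGq transgene reads in the *Chrm3* UMIs was not tested.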

How the results depend on the processing

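The count of genes called between groups was 2. It was 12 with no filter on genes, 13 with a replicate block, 0 with DESeq2 and from 6 to 25 when 1 library was left out (25 without control 1, 13 without control 2, 8 without AgRP-Gq;POMC-Gi 1 and 6 without AgRP-Gq;POMC-Gi 2). *Chrm3* was called in each edgeR alternative. No source says that a replicate number marks a shared day or batch, although *Ttr* was high in both libraries numbered 2, and the correlation of the replicate differences between groups was 0.10 over 4979 genes. The interaction called 1 gene, and 2 without TMM factors, 3 with no filter, 3 with the edgeR expression filter, 2 with DESeq2 and from 0 to 42 with 1 library left out (42 without control 1, 11 without control 2, 0 without either AgRP-Gq;POMC-Gi library). The cause was not tested. Its model already holds library as a block.

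Leaving out 1 library turned the direction of 8 genes, with ranges of -1.26 to 0.64 for *Gal*, -1.76 to 0.75 for *Fos* (0.11 without AgRP-Gq;POMC-Gi 1), -0.23 to 0.49 for *Homer1* (-0.03 without control 1), -0.98 to 0.035 for *Nr4a1*, -1.36 to 0.41 for *Jun*, -0.66 to 6.17 for *Junb* (-0.47 without AgRP-Gq;POMC-Gi 2, and 6.17 fitted against a lone control with 0 UMIs, which is no bound), -0.17 to 0.37 for *Btg1* and -4.80 to 0.85 for *1700016P03Rik* (0.66 without AgRP-Gq;POMC-Gi 1), all log2 differences. A library left alone in its group was assumed to vary like the other group's pair. Of 193 values of 22 genes, 163 kept their direction and side of the threshold. The share among neurons stayed short of the threshold in each alternative (log2 difference 0.75 to 1.51, 1.14 with the replicate block), as did the share of all kept nuclei (1.67), and the transmitter ratio stayed at 87.2 or higher. Of 406 levels against other neurons, 388 moved by less than the spread between libraries and 18 by more. Sums of 17 and 19 control nuclei limit the depth.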
